A study of Mus musculus with 66 samples.

Results

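The proteasome genes of regenerating mouse muscle are described here. They were found by symbol on the later of 2 versions of the Affymetrix murine array: probe sets annotated to 1 gene whose symbol begins with Psma, Psmb, Psmc, Psmd or Psme, leaving out Psmb8 and Psmb9. The rule used no measured value and found 40 of the 8251 genes with a probe set of 1 symbol, and these 40 genes have 51 probe sets. Of the 40, 38 encode subunits, activators or assembly chaperones of the proteasome. The other 2 carry the prefix and are no subunits: Psmc3ip was never above the lower limit used for the array on any of 54 arrays, and Psme3ip1 passed no test against the controls. Where a gene had several probe sets, the brightest over the 54 arrays stood for it. Psme2, the partner of Psme1, is no member, because both of its probe sets on the later version are also annotated to Psme2b.

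RNA came from mouse gastrocnemius, a calf muscle. The untreated controls are given as 8 weeks old; 26 later times, between 12 h and 40 d, follow an injection of cardiotoxin, a venom protein that kills muscle fibres, after which the resident satellite cells form new ones. A dose (100 ul of 10 uM cardiotoxin) is stated for 10 arrays, all of the earlier array version, and for none of the later version. The sources used here name no strain, sex or genotype. The later array version, labelled Av2, was used for 54 arrays, 2 in each of 27 groups (untreated, 12 h, 1, 2, 3, 3.5, 4, 4.5, 5, 5.5, 6, 6.5, 7, 7.5, 8, 8.5, 9, 9.5, 10, 11, 12, 13, 14, 16, 20, 30 and 40 d). The earlier version, labelled A, was used for 12 arrays, 2 each for untreated muscle, 12 h, 1, 2, 4 and 10 d. The labels do not tie arrays to animals, so p-values measure only the spread between these arrays, which may be technical. The time points were gathered into windows of 12 h to 2 d (6 arrays), 3 to 4.5 d (8), 5 to 7.5 d (12), 8 to 10 d (10), 11 to 16 d (10) and 20 to 40 d (6), each set against the same 2 control arrays.

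The proteasome takes apart proteins that carry chains of ubiquitin. Its core is a barrel of alpha and beta rings, in which Psmb5, Psmb6 and Psmb7 are the catalytic subunits. A regulatory particle caps the barrel: its base holds the Psmc ATPases, which unfold the substrate, and the large scaffold subunits, and its lid holds Psmd14, which cuts off the ubiquitin. Interferon gamma replaces the catalytic subunits with inducible ones, among them Psmb10 in place of Psmb7, and raises the Psme1 and Psme2 activator. Psme3 forms a nuclear activator, and Psme4 is a large single-chain cap known for the degradation of histones. In wasting muscle the proteasome is known for the breakdown of myofibrillar protein, and Nfe2l1 is known to raise its subunit genes together through antioxidant response elements.

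Because of that shared regulation, the promoters of the members were read. The RefSeq table of mouse promoters (GRCm38.p6; 250 bases before to 50 after the start) held 32 of the 38 members, and Psmb1, Psmb2, Psmb7, Psmc3, Psmd3 and Psmd7 are not among them. On both strands, the letters TGACNNNGC of the antioxidant response element were present for 6 of 32 members (18.8%), beside 14% of the 27025 genes counted: Psmb5, Psmb6, Psmc6, Psmd9, Psmd12 and Psme4. The interferon-stimulated response element was present for 4 of 32 (12.5%), beside 3.99% of the genes counted: Psmb3, Psmd4, Psmd9 and Psme1. The CCAAT box was present for 12 of 32 (37.5%, beside 41.1%), and TTCNNNGAA, the site activated by interferon gamma, for Psmd2 alone (3.12%, beside 9.55%). Promoter stretches follow with the antioxidant and interferon-stimulated elements that lie nearest to the start, and none holds a second motif that overlaps its match. They run from 100 bases before the start to 20 bases into the transcript, with the match in capitals: an antioxidant response element for Psmb5, Psmb6, Psmd9 and Psme4, and an interferon-stimulated response element for Psme1. They lie at chr14:54617976-54618095 on the minus strand (Psmb5), chr11:70525257-70525376 (Psmb6), chr5:123228090-123228209 (Psmd9), chr11:30771675-30771794 (Psme4) and chr14:55578394-55578513 (Psme1), the last 4 on the plus strand.
Psmb5: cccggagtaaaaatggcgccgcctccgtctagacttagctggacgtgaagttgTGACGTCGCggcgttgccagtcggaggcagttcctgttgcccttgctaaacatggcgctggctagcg
Psmb6: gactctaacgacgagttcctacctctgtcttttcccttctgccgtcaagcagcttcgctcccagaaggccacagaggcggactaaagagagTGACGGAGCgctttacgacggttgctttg
Psmd9: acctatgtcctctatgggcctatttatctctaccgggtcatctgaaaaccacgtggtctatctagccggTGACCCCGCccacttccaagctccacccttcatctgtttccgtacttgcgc
Psme4: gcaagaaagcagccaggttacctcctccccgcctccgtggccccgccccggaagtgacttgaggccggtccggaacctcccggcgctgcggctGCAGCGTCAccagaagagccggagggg
Psme1: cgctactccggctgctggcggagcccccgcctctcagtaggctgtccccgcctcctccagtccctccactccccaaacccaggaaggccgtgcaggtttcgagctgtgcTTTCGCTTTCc
A match is a description of the letters and shows no binding. Of the 6 members with the antioxidant element, 5 were lower at 12 h to 2 d and Psmd9 was not; of the 26 members whose promoters lack it, 5 were lower and 3 higher, and of all probe sets 18.5% were lower. That difference was not tested. Of the 5 calls, those of Psmb5, Psmc6 and Psmd12 were lost without either control and that of Psmb6 without control replicate 2, and Psme4 kept its call without either. With the CCAAT box 3 of 12 members were lower and 1 higher in that window, and without it 7 of 20 were lower and 2 higher. With the interferon-stimulated element 1 of 4 was lower and 0 higher, and without it 9 of 28 were lower and 3 higher. Psmd2, with the interferon gamma site, was not called, and of the 31 members without it 10 were lower and 3 higher. These splits were not tested.

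Some features of the whole series touch these results. On every array of the later version, 76.4% to 83.4% of the probe sets lay above the lower limit of 64.7 intensity units to which dim values were raised. The manufacturer's probe sets for the 3' and 5' ends of b-actin had a 3' to 5' ratio below 0.25 on 8 arrays, at 0.018 to 0.233. These were 12 h replicate 2, both arrays at 1 d, 2 d and 4 d, and 5 d replicate 1. The 3' set was the dimmer one there, so the ratio is not read as RNA degradation, and its cause was not tested. The Gapdh ratio was below 0.25 on 9 other arrays between 9.5 and 40 d. The 2 arrays at 9 d stood apart from their neighbours: the summed intensity of 7 neutrophil markers was 35536 and 13253, against 3072 to 5053 on the other 8 arrays from 8 to 10 d. Markers of mature fast fibres identify the tissue: 11 of 11 were measured, and they summed to 261518 and 323300 in the controls.

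Against the 2 controls, more of the 38 members were lower than higher in each of the first 5 windows. Psme4, Psmd6, Psmc2, Psmd1 and Psmd4 were lower in each of the first 5 windows, and the catalytic subunit Psmb7 in the first 4. Psmb10, the inducible counterpart of Psmb7, was higher in the same 5 windows, by 0.73 to 1.17 on the log2 scale. In all, 20 members were called lower in at least 1 window, 5 were called higher in at least 1, none both ways, and 13 were called in no window. The share of all probe sets called in at least 1 window was not computed, so these 4 counts have no background. The reference matters: with the 30 and 40 d arrays in place of the controls, 5 were higher and 5 lower at 12 h to 2 d. In the next 4 windows 10, 8, 8 and 5 were higher and 3, 6, 4 and 3 lower. The shares of all probe sets called with that reference were not computed, so these counts have no background beside them. Psme4, Psmd11 and Psmb10 kept each of their calls from the first 5 windows there. The change of Psmc2 turned to 0.101, 0.111, 0.010 and 0.081 at 12 h to 2 d, 3 to 4.5 d, 8 to 10 d and 11 to 16 d, that of Psmd6 to 0.111 at 11 to 16 d and that of Psmb7 to 0.012 at 8 to 10 d. Called changes of Psma7, Psmb4, Psmc5, Psmd3, Psmd5 and Psme3 also changed sign in at least 1 window. The heat map shows the changes from the controls gene by gene.

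**Figure D1:**
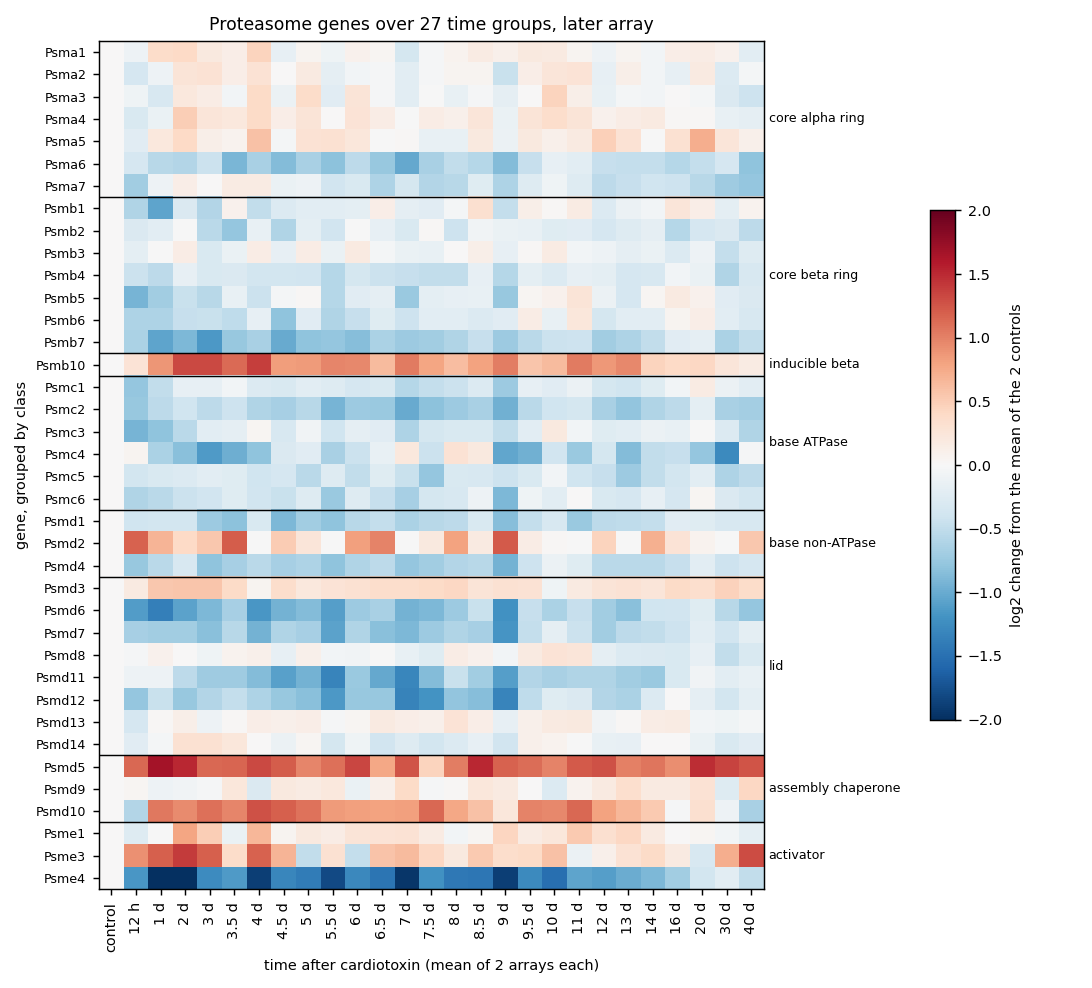
Log2 change of each of the 38 proteasome genes (rows, grouped by class) from the mean of the 2 controls, at each of 27 time groups (columns, mean of 2 arrays); the colour scale ends at 2 in either direction. Psme4, Psmd6, Psmd11 and Psmd12 form the bluest rows, and Psmb10 and Psmd5 stay red from 1 d on.

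The counts stand beside those of all probe sets tested, called at the same adjusted p of 0.05. At 12 h to 2 d, 4 members were higher and 14 lower, when 17.7% of the 11997 probe sets were higher and 18.5% lower. At 3 to 4.5 d, 5 were higher and 11 lower (22.2% and 18.5% of all). At 5 to 7.5 d, 3 were higher and 13 lower (19.0% and 16.1% of all). At 8 to 10 d, 2 were higher and 9 lower (16.9% and 13.8% of all), and without the 9 d arrays 2 and 7. At 11 to 16 d, 3 were higher and 7 lower (13.9% and 10.2% of all). At 20 to 40 d, Psmd5 and Psmd3 were higher and Psma7 lower (5.01% and 2.12% of all). The median change of the members was -0.23, -0.18, -0.26, -0.17 and -0.15 in the first 5 windows, where that of all 8087 genes tested lay between 0.00 and 0.04. The same medians at 20 to 40 d were -0.22 for the members and 0.02 for all genes tested. Over the 27 time groups, 21 members changed by the F test, beside 48.7% of all probe sets.

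These counts lean on single arrays, since each comparison has 2 controls. Without control replicate 1 the members lower numbered 5, 7, 8, 5, 1 and 0 in the 6 windows and the members higher 2, 2, 2, 1, 1 and 0. Without control replicate 2 those lower numbered 6, 8, 8, 5, 3 and 0 and those higher 4, 3, 3, 2, 3 and 2. At 20 to 40 d, 1 to 3 members were lower and 1 or 2 higher when any other single array was left out. Without 12 h replicate 2 the count lower at 12 h to 2 d was 8, and without the 8 arrays low in b-actin, which leaves 12 h replicate 1 alone in that window, it was 0, with 1 member higher. When arrays were scaled to a common median, which moved all genes down by 0.07 to 0.18 relative to the controls, 2 members were higher and 15 lower at 3 to 4.5 d, 2 and 10 at 11 to 16 d, and 1 and 2 at 20 to 40 d. RNA was measured in whole muscle, so fewer cells of a type and less RNA per cell cannot be told apart.

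Among the activators, Psme4 had the largest fall of any member. Its intensity was 4175 and 4806 in the controls. It was 3124 and 1277 at 12 h and 686 and 1202 at 1 d. From 3 to 4.5 d the lowest, median and highest arrays read 1204, 1848 and 2188, from 5 to 7.5 d 1140, 1618 and 2109, and from 8 to 10 d 1058, 1596 and 2225. The level then moved back toward that of the controls, with a median of 2305 from 11 to 16 d and 3471 from 20 to 40 d. All 52 arrays after injection lay below both controls. The log2 change was -1.85 ± 0.21 (SE; adjusted p = 3.3e-08) at 12 h to 2 d, -1.39, -1.52 and -1.50 in the next windows, and -0.95 ± 0.20 (adjusted p = 0.00071) at 11 to 16 d. At 20 to 40 d it was -0.36 ± 0.21 and did not pass. Leaving out any 1 array ended none of the calls against the controls. Without the 8 arrays low in b-actin, 12 h replicate 1 alone gave -0.52 and did not pass.

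Psme3, which encodes the nuclear activator, rose early. It read 749 and 732 in the controls, 1042 to 2495 over the 6 arrays from 12 h to 2 d (median 1907) and 940 to 2018 from 3 to 4.5 d (median 1441). All 14 of these arrays lay above both controls. The rise was 1.17 ± 0.27 (adjusted p = 0.00075) and then 0.86 ± 0.26 (adjusted p = 0.0082); the second was lost without control replicate 1, without control replicate 2 and after median scaling (adjusted p = 0.052). At 5 d the arrays read 642 and 430, at 6 d 370 and 764, and 5 to 7.5 d was lower than 3 to 4.5 d by 0.70 ± 0.15 (adjusted p = 0.00088). A second high point came at 40 d, at 1773 and 1890, while 20 d read 778 and 454.

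Psme1, the interferon-responsive activator, passed no window against the controls. It read 1379 and 1360 in the controls, 1083 to 1515 at 12 h and 1 d, 2286 and 2447 at 2 d, and 2039 and 2299 at 4 d. All 12 arrays from 5 to 7.5 d lay above both controls, between 1404 and 1760, and that window exceeded 20 to 40 d by 0.29 ± 0.09 (adjusted p = 0.0096). This call was lost without 20 d replicate 1 (adjusted p = 0.078). The change over all 27 groups passed (F test, adjusted p = 0.00076).

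Psmb10, the inducible catalytic subunit, showed the most sustained rise that no single array carried. It read 972 and 867 in the controls and 879 and 1390 at 12 h. At 2 d it read 2110 and 2468, at 3 d 2265 and 2329, and at 4 d 2458 and 2332, the highest group mean (2395 ± 88.5, SD, n = 2). The medians were 1654 from 5 to 7.5 d, 1440 from 8 to 10 d, 1594 from 11 to 16 d and 1092 from 20 to 40 d. Of the 52 arrays after injection, 12 h replicate 1 lay between the controls and the rest lay above both. The change was 0.82 ± 0.17 at 12 h to 2 d, 1.17 ± 0.16 (adjusted p = 4.2e-07) at 3 to 4.5 d, then 0.87, 0.73 and 0.74, and 0.27 ± 0.17 at 20 to 40 d, which did not pass. It was not lost against the controls when any 1 array was left out. Without the 8 arrays low in b-actin, the 12 h to 2 d value was -0.06, from 12 h replicate 1 alone.

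Psmb7, the constitutive catalytic subunit that Psmb10 replaces, moved the other way. It read 4942 and 4020 in the controls, 4267 and 1926 at 12 h, 1513 and 3061 at 1 d and 2048 and 1974 at 3 d. Medians were 2431 from 3 to 4.5 d, 2578 from 5 to 7.5 d, 3119 from 8 to 10 d and 3171 from 20 to 40 d. The changes were -0.86 ± 0.20 (adjusted p = 0.00072), -0.89 ± 0.19 (adjusted p = 0.00031), -0.75 ± 0.18 and -0.55 ± 0.19 in the first 4 windows. Control replicate 1 was needed for the last 2 calls (adjusted p without it 0.084 and 0.31), and the last was also lost without control replicate 2 (0.051). This probe set carries a suffix by which the manufacturer marks sets that may match related transcripts. The sets that stand for Psma3, Psmb4, Psmc3 and Psmd12 carry the same suffix.

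**Figure D2:**
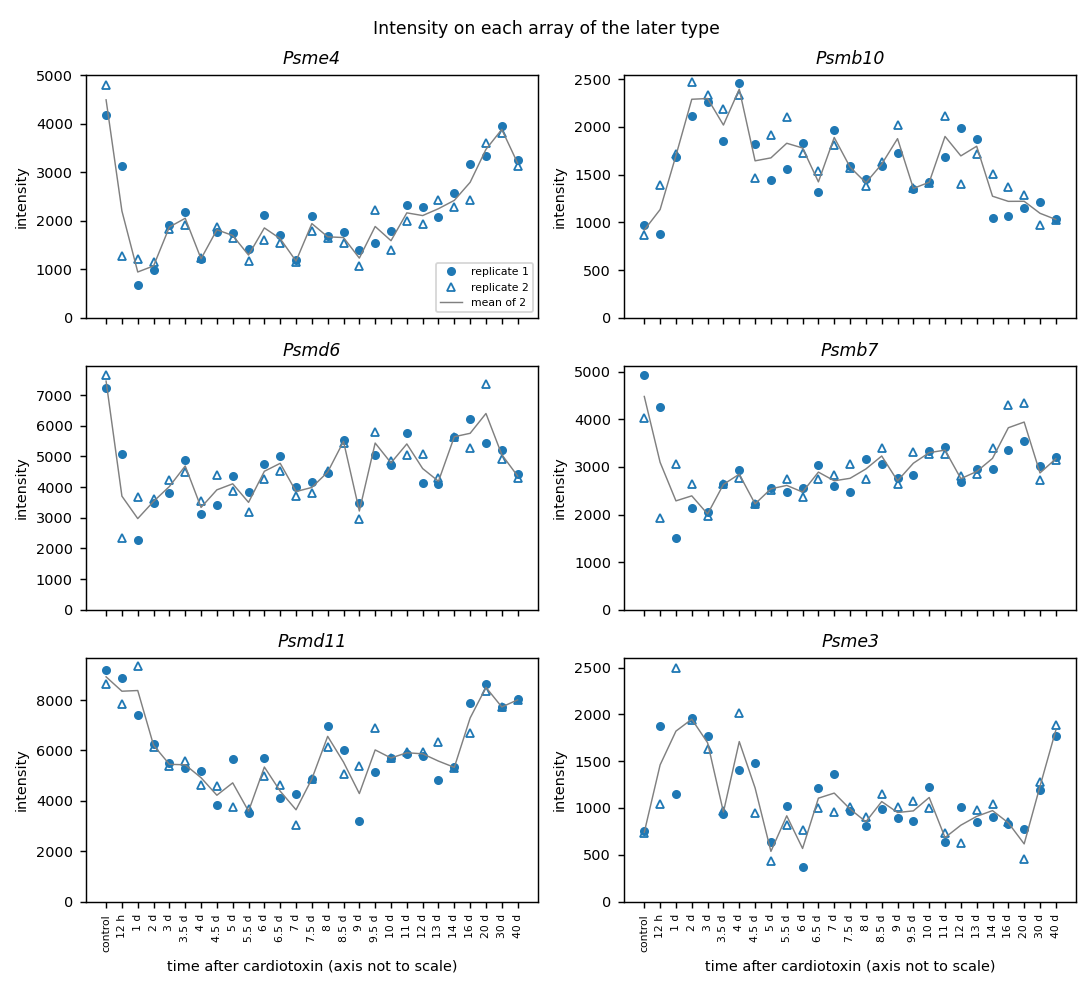
Intensity (vertical axis, from 0) on each of the 54 arrays of the later version for 6 proteasome genes, by time group (horizontal axis, not to scale); filled circles are replicate 1, open triangles replicate 2, and the line joins the means. Psme4, Psmd6, Psmb7 and Psmd11 lie highest in the controls, Psmb10 peaks from 2 to 4 d, and Psme3 has an early peak and a second one at 40 d.

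Since both subunits fill the same place in the ring, the log2 ratio of Psmb10 to Psmb7 was taken on each array. Its size mixes the response of 2 probe sets and is read only between arrays. It was -2.35 and -2.21 in the controls. From 3 to 4.5 d it was -0.22 ± 0.29 (SD, n = 8), with no array below -0.60, and from 20 to 40 d it was -1.57 ± 0.15 (SD, n = 6), with none above -1.31. Against 20 to 40 d, the ratio was higher by 1.35 at 3 to 4.5 d (two-sided exact permutation test over arrays, p = 0.00067, adjusted over 10 tests 0.0022). It was higher by 0.91 at 5 to 7.5 d (permutation, adjusted p = 0.0011), 0.57 at 8 to 10 d (permutation, adjusted p = 0.0012) and 0.52 at 11 to 16 d (exact permutation, adjusted p = 0.037). At 12 h to 2 d the arrays ranged from -2.28 to 0.16 and the difference of 0.98 did not pass (exact permutation, adjusted p = 0.06). The arrays of a window include several times, so this spread holds the course of time as well as error. The ratio of Psme1 to Psme3 passed in none of its 5 tests (exact permutation, adjusted p from 0.06 to 0.91; unadjusted p was 0.036 at 11 to 16 d).

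**Figure D3:**
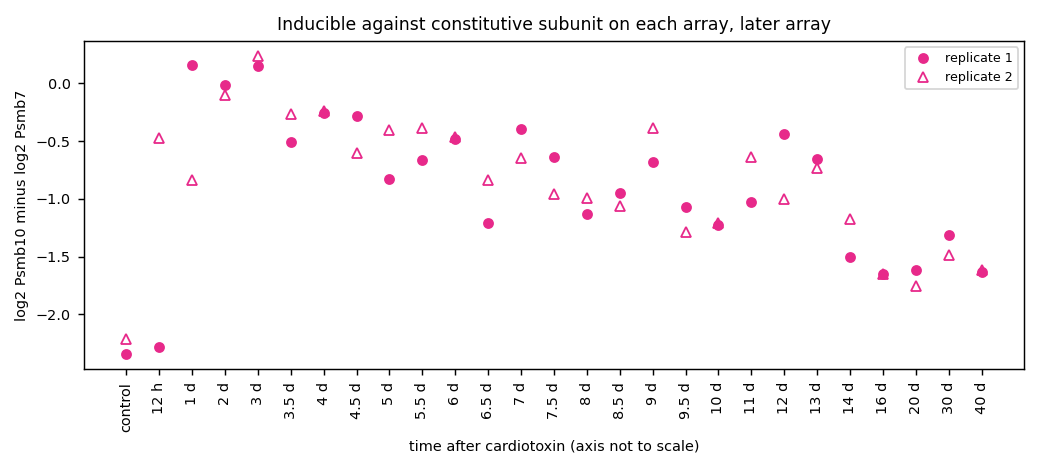
Log2 intensity of Psmb10 minus log2 intensity of Psmb7 (vertical axis) on each of 54 arrays by time group (horizontal axis, not to scale); circles are replicate 1 and triangles replicate 2. The controls and 12 h replicate 1 lie at the bottom between -2.35 and -2.21, and the 6 arrays from 20 to 40 d lie between -1.75 and -1.31.

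The alpha ring forms the gate of the barrel. Of its 7 genes none was called at 12 h to 2 d, 8 to 10 d or 11 to 16 d, and none was called higher in any window against the controls. Psma6 was lower at 3 to 4.5 d, by 0.72 ± 0.22 (adjusted p = 0.009), and at 5 to 7.5 d, by 0.73 ± 0.21 (adjusted p = 0.0068); both calls were lost without control replicate 2 (adjusted p = 0.1). Psma7 read 1176 and 1162 in the controls, 1096 to 1355 at 3, 3.5 and 4 d, and 673 to 853 on the 6 arrays from 20 to 40 d, below both controls. It fell by 0.68 ± 0.17 at 20 to 40 d (adjusted p = 0.0088), a call lost without control replicate 1 (adjusted p = 0.091) or replicate 2 (0.088). At 5 to 7.5 d it fell by 0.39 ± 0.15 (adjusted p = 0.048), which 36 of the left-out arrays ended. Psma1, Psma2, Psma3, Psma4 and Psma5 had window changes between -0.25 and 0.36, and none passed.

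In the beta ring, which holds the catalytic sites, the changes of the 7 constitutive genes were all below 0 at 12 h to 2 d, with a median of -0.56, and 4 passed: Psmb7, Psmb5, Psmb1 and Psmb6. The calls of Psmb1, which fell by 0.65 ± 0.24, and of the catalytic Psmb6, which fell by 0.56 ± 0.22, were lost without control replicate 2 or 12 h replicate 2, among other arrays. Psmb5, the subunit that most proteasome inhibitors bind, read 2990 and 2752 in the controls, 2188 and 1030 at 12 h, 1177 and 2676 at 1 d and 2253 and 1968 at 2 d. It fell by 0.69 ± 0.21 (adjusted p = 0.011) and later windows did not pass, with 11 to 16 d at 0.00. Its fall was lost without either control (adjusted p = 0.11 and 0.053), and without the 8 arrays low in b-actin the 12 h array alone gave -0.39. Over all time groups this probe set passed the F test (adjusted p = 0.01), and the dimmer probe set of Psmb5 did not (F test, adjusted p = 0.34). Psmb2 was lower at 3 to 4.5 d, by 0.52 ± 0.15, and Psmb4 at 5 to 7.5 d, by 0.45 ± 0.17 (adjusted p = 0.035). Psmb2 was lost without control replicate 1 (adjusted p = 0.051), and Psmb4 without control replicate 1, control replicate 2 or 7.5 d replicate 2. Psmb3 passed in no window.

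The plot of class medians sets the rings beside the base and the lid. At 4 d the median of the alpha ring was 0.38, that of the beta ring -0.37, that of the base ATPases -0.40 and that of the lid -0.31. At 9 d the same medians were -0.17, -0.48, -0.81 and -0.74, and at 9.5 d 0.13, 0.02, -0.26 and -0.18. At 20 d they lay between -0.15 and 0.03, and at 40 d between -0.45 and -0.19. The 9 d arrays are those high in neutrophil markers, and the part of those cells in the dip was not tested.

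**Figure D4:**
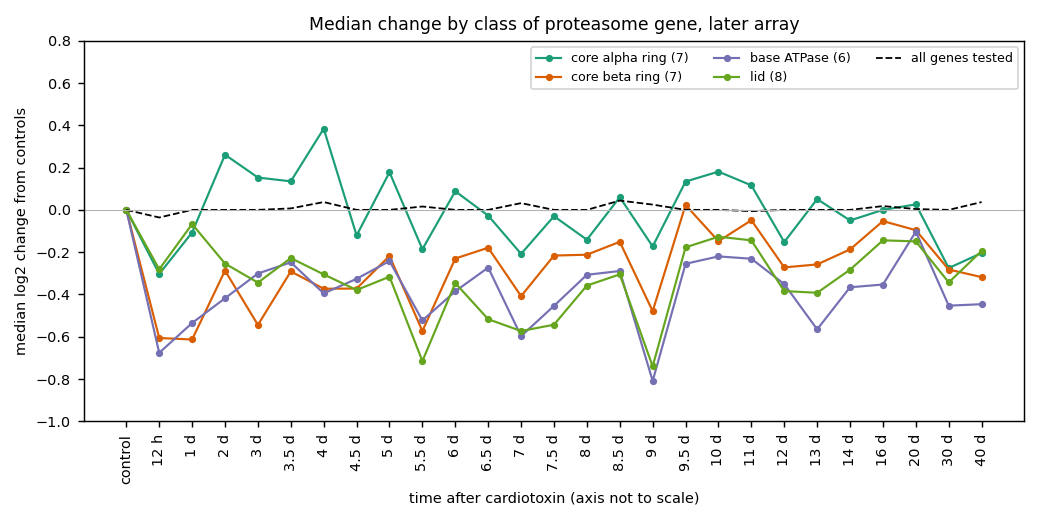
Median log2 change from the controls (vertical axis) at 27 time groups (horizontal axis, not to scale) for the genes of the alpha ring (7), beta ring (7), base ATPases (6) and lid (8), with the median of all genes tested as a dashed line. The alpha ring runs above the other classes at most times, at 0.38 on 4 d, and the base ATPases and the lid are lowest on 9 d, at -0.81 and -0.74.

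In the base, all 6 ATPases had changes below 0 in each of the 6 windows, and few passed singly after the first window. Each window uses the same 2 controls, so these signs are not independent. With 30 and 40 d in place of the controls, called changes of Psmc2 and Psmc5 turned above 0 in some windows. Against the controls, the median of the ATPases was -0.37 at 20 to 40 d, where none passed, beside -0.33 at 3 to 4.5 d. At 12 h to 2 d, 4 of 6 were lower: Psmc3 by 0.76 ± 0.17 (adjusted p = 0.00062), Psmc2 by 0.56 ± 0.16, Psmc6 by 0.52 ± 0.19 and Psmc1 by 0.48 ± 0.16. Psmc3 kept its call when any 1 array was left out, while Psmc2 was lost without control replicate 1 and Psmc1 and Psmc6 without either control or 12 h replicate 2. Over all time groups, another Psmc3 probe set passed the F test (adjusted p = 0.0077) and a dimmer one did not (F test, adjusted p = 0.51). Psmc2 read 3568 and 3482 in the controls, and 1630 to 2539 from 5 to 7.5 d (median 2089), all 12 below both controls. It fell by 0.80 ± 0.15 there (adjusted p = 9.2e-05) and by 0.65 ± 0.15 at 8 to 10 d (adjusted p = 0.0014), and those 2 calls held without any 1 array; smaller falls at 3 to 4.5 d (0.55) and 11 to 16 d (0.58) were lost without control replicate 1. Psmc5 fell by 0.46 ± 0.17 at 5 to 7.5 d and by 0.49 ± 0.17 at 11 to 16 d (adjusted p = 0.038 for both), and both were lost without either control, among other arrays. Psmc4 was dim, above the lower limit on 49 of 54 arrays, at 204 and 199 in the controls and 16 to 282 afterwards, and passed nowhere.

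Of the 3 non-ATPase subunits of the base, Psmd1 and Psmd4 fell and Psmd2 passed nowhere. Psmd1, a scaffold, read 6276 and 5489 in the controls, 4164 to 4828 from 12 h to 2 d, 2808 to 4815 from 3 to 4.5 d (median 3517) and 3190 to 4771 from 5 to 7.5 d (median 3693), and all 52 arrays after injection lay below both controls. It fell by 0.69 ± 0.12 at 3 to 4.5 d (adjusted p = 1.3e-05) and by 0.62 ± 0.11 at 5 to 7.5 d (adjusted p = 4.8e-05), and smaller falls of 0.38, 0.50 and 0.50 at 12 h to 2 d, 8 to 10 d and 11 to 16 d were lost without control replicate 1. Psmd4, which binds ubiquitin chains, read 3288 and 3251 in the controls and 1675 to 2344 from 5 to 7.5 d (median 2079). It fell by 0.66 ± 0.17 and 0.67 ± 0.16 at 3 to 4.5 d and 5 to 7.5 d (adjusted p = 0.0018 and 0.0014), and by 0.54, 0.52 and 0.47 in the other 3 of the first 5 windows, where either left-out control ended the call. Psmd2, the other scaffold, was above the lower limit on 27 of 54 arrays.

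**Figure D5:**
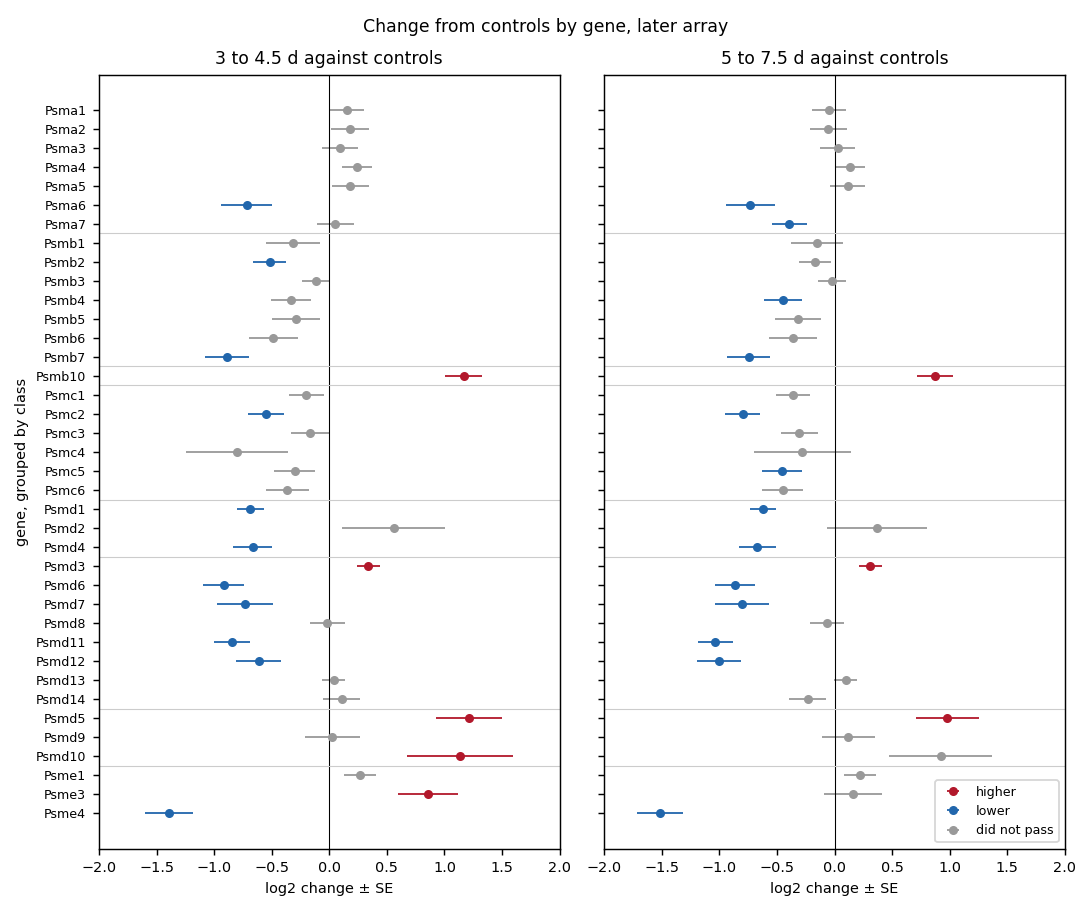
Log2 change from the controls with its standard error (horizontal axis) for each of the 38 proteasome genes (vertical axis, grouped by class) at 3 to 4.5 d and 5 to 7.5 d; red and blue points passed at an adjusted p of 0.05 and grey points did not. At 5 to 7.5 d, 4 of the 8 lid genes are blue and Psme4 lies farthest left, at -1.52.

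The lid split into genes that fell and genes that did not. Psmd6, Psmd7, Psmd11 and Psmd12 were lower at 3 to 4.5 d, 5 to 7.5 d and 8 to 10 d. Psmd8, Psmd13 and the deubiquitinase Psmd14 passed in no window, with changes between -0.32 and 0.13. Psmd14 read 1097 and 1125 in the controls and 737 to 1481 on the other arrays, and was lower at 5 to 7.5 d than at 3 to 4.5 d by 0.34 ± 0.09 (adjusted p = 0.0086).

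Psmd6 read 7245 and 7667 in the controls, 5080 and 2327 at 12 h, 2271 and 3672 at 1 d, and 3113 to 4879 from 3 to 4.5 d (median 4019). It fell by 1.19 ± 0.18 at 12 h to 2 d (adjusted p = 4.1e-06), 0.92 ± 0.18 at 3 to 4.5 d and 0.86 ± 0.17 at 5 to 7.5 d, and no left-out array ended these calls. Falls of 0.70 at 8 to 10 d and 0.56 at 11 to 16 d were lost without control replicate 2 (adjusted p = 0.051 and 0.17), and the second also without control replicate 1 (0.094). The 12 h array outside the 8 low in b-actin gave -0.55 (adjusted p = 0.055).

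Psmd11 read 9206 and 8650 in the controls, 7415 to 9351 at 12 h and 1 d, and 6266 and 6146 at 2 d. It read 3032 to 5705 from 5 to 7.5 d (median 4452), and it returned to 7710 to 8631 from 20 to 40 d. At 12 h to 2 d the change of -0.24 ± 0.16 did not pass; then it fell by 0.84 ± 0.16, 1.04 ± 0.15 (adjusted p = 1.7e-06), 0.69 ± 0.15 and 0.59 ± 0.15. The last was lost without control replicate 1 (adjusted p = 0.082). The fall from 12 h to 2 d into 3 to 4.5 d passed itself, at 0.60 ± 0.11 (adjusted p = 4.5e-05). Its other probe sets did not all follow: one fell by 0.47 ± 0.17 at 5 to 7.5 d (adjusted p = 0.032), and one, marked by its suffix as incompletely specific, rose by 0.96 ± 0.30 there (adjusted p = 0.011).

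Psmd12 read 1840 and 1820 in the controls and 711 to 1217 from 5 to 7.5 d (median 960). It fell by 1.00 ± 0.19 there (adjusted p = 7e-05) and by 0.74 ± 0.19 at 8 to 10 d (adjusted p = 0.0029). Falls of 0.66 and 0.61 in the first 2 windows were lost without either control. Psmd7, the partner of Psmd14, fell by 0.68 to 0.80 in the first 3 windows and by 0.62 at 8 to 10 d, and each call was lost without either control. Psmd3 was higher in 5 windows by 0.27 to 0.42, from 2777 and 3306 in the controls to 3166 to 4755 at 12 h to 2 d, and every one of these calls was lost without control replicate 1. After median scaling its rises at 3 to 4.5 d, 5 to 7.5 d, 11 to 16 d and 20 to 40 d did not pass.

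The assembly chaperones, which build the base and leave it, were measured by 3 genes: Psmd5 was called in 6 windows, Psmd10 in 1 and Psmd9 in none. Psmd5 was higher in all 6 windows by 0.98 to 1.44. It read 395 and 797 in the controls, 1050 to 2434 from 12 h to 2 d and 1329 to 1785 from 20 to 40 d. Without control replicate 1, the lower of the 2, none of the 6 calls remained (adjusted p from 0.058 to 0.4). Psmd10, also called gankyrin, was higher at 3 to 4.5 d by 1.14 ± 0.46 with an adjusted p just under the threshold; it read 188 and 35 in the controls, and without control replicate 2 the adjusted p was 0.74, and 34 other left-out arrays also ended the call.

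From 12 h to 2 d into 3 to 4.5 d, 5 rose and 3 fell, beside 16.9% and 10.7% of all probe sets. The rises were Psmc3 (0.59 ± 0.11), Psme4 (0.45 ± 0.14), Psmb5 (0.40 ± 0.14), Psmb10 (0.34 ± 0.11) and Psmc1 (0.28 ± 0.10), and the falls were Psmd11, Psmb2 (0.35 ± 0.10) and Psmd1 (0.31 ± 0.08). The rise of Psme4 was lost without 12 h replicate 2, 1 d replicate 1 or 2 d replicate 1. That of Psmc1 was lost when any of 16 arrays was left out, that of Psmb5 with 7, and that of Psmb10 without 12 h replicate 1 (adjusted p = 0.11) or 2 d replicate 1 (0.062). The fall of Psmb2 was lost without 12 h replicate 1 (adjusted p = 0.051), and Psmc3, Psmd11 and Psmd1 kept their calls. Leaving out one array moved the count of rises between 2 (without 12 h replicate 2, 1 d replicate 1 or 2 d replicate 1) and 10 (without 1 d replicate 2), and after median scaling it was 1 rise and 4 falls. Without the 8 arrays low in b-actin the change of Psme4 was -0.71 in place of the rise. From 3 to 4.5 d into 5 to 7.5 d, Psmb2 rose by 0.35 ± 0.08 and 5 members fell, beside 9.16% and 12.0% of all probe sets: Psme3, Psma7 (0.45 ± 0.09, adjusted p = 0.00061), Psmd12 (0.39 ± 0.11), Psmd14 and Psmb10 (0.29 ± 0.09). Against 20 to 40 d, 8 members were higher and 11 lower at 5 to 7.5 d, beside 20% and 18.0% of all. The largest differences there were the falls of Psme4 (1.16 ± 0.13), Psmd11 (0.89 ± 0.10) and Psmd12 (0.75 ± 0.12) and the rise of Psmb10 (0.60 ± 0.10). Psmd10 was higher by 1.06 ± 0.29, a value that leans on dim arrays: 20 d replicate 1 read 42.7 and 40 d replicate 1 43.8, both below the lower limit, and the call was lost without the former (adjusted p = 0.06). Without 20 d replicate 1 the members higher numbered 3, without 30 d replicate 2 5, and without 20 d replicate 2 the members lower numbered 6; after median scaling 2 were higher and 13 lower.

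Over the 27 group means, members of one ring varied together more closely than the members as a whole. The median correlation between pairs was 0.44 in the alpha ring (21 pairs), 0.49 in the beta ring (21 pairs), 0.36 among the base ATPases (15 pairs) and 0.13 in the lid (28 pairs). It was 0.14 over all 703 pairs of members and 0.01 over all pairs of the 8087 genes tested. These values share the 54 arrays and are given as a description. Psmc2 followed the median of the other members most closely (r = 0.92), and Psmd2, Psmd9 and Psmd3 had the lowest values (r = -0.43, -0.33 and -0.30). Without the 2 groups farthest from the median, Psmc2 was at 0.90 and the lowest were Psmc4 (-0.42), Psmd9 (-0.32) and Psme3 (-0.27). Of the 38 members and Psmc3ip and Psme3ip1, 11 had their highest group mean in the controls, 6 had their lowest at 12 h and 5 at 9 d. The highest group mean was 4.76 times the lowest for Psme4 and 1.49 times for Psmb4; that of Psmd2 lies partly below the lower limit and has no such ratio.

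The earlier array version measured 37 of the 40 genes, 36 by the same probe set, and its low limit of 647 units left 4742 probe sets to test, among them those of 33 of the 38 members. At 12 h to 2 d, 3 members were higher and 3 lower, beside 21.3% and 26.3% of all; at 4 d, 9 were higher and 4 lower, beside 22.9% and 23.0%; at 10 d, 1 was higher and 1 lower, beside 13.3% and 13.2%. With any 1 array left out, these counts ran from 0 to 6 higher and 0 to 11 lower at 12 h to 2 d, from 4 to 10 and 1 to 5 at 4 d, and from 1 to 5 and 1 to 2 at 10 d. At 12 h to 2 d none was lower without control replicate 1 and none higher without control replicate 2, and 11 were lower without 12 h replicate 1. At 4 d, 4 were higher and 1 lower without control replicate 1 or 4 d replicate 2, 5 and 1 without 4 d replicate 1, and 7 and 1 without control replicate 2. On the later version, 5 of the 38 members were higher and 6 lower at 4 d alone, beside 19.7% and 15.2% of all probe sets, and 2 were higher and 3 lower at 10 d alone, beside 13.5% and 9.55%. The b-actin ratio of every array of the earlier version lay between 0.768 and 1.203, while both 4 d arrays of the later version are among the 8 low ones. Both versions' control muscles bear the same codes in the labels, and so do both versions' 12 h muscles, so the versions are not independent samples.

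At 4 d, Psme4 read 1366 and 1369 on the earlier version against 4737 and 4306 in its controls, and fell by 1.72 ± 0.53 (adjusted p = 0.028), a call lost without any 1 of these 4 arrays. On the later version, 4 d alone fell by 1.88 ± 0.26 (adjusted p = 9.1e-07). Psmd11 read 4328 and 3983 against 8133 and 7993, and fell by 0.96 ± 0.11 (adjusted p = 0.00041); on the later version it fell by 0.86 ± 0.20. Psmd11 was the member lower on the earlier version in all 3 comparisons, at 12 h to 2 d by 0.41 ± 0.09 and at 10 d by 0.66 ± 0.11. Psmb10 read 2574 and 2192 against 128 and 836, of which 128 lies below the low limit; the rise of 1.69 ± 0.45 passed (adjusted p = 0.016), was lost without control replicate 1 or either 4 d array, and was 1.38 ± 0.20 on the later version. Psme1 rose to 2107 and 2128 from 968 and 897, by 1.18 ± 0.16 (adjusted p = 0.00086), and by 0.66 ± 0.18 (adjusted p = 0.0042) on the later version.

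The ring genes at 4 d were called differently on the versions, and the difference was not tested. The median of the alpha ring was 0.25 on the earlier version and 0.38 on the later one at 4 d alone. Psma5 rose by 1.21 ± 0.18 (adjusted p = 0.0014) and by 0.58 ± 0.20 on the later one. Psma4 rose by 0.77 ± 0.17 and Psmb6 by 1.10 ± 0.27 on the earlier one; on the later one, 4 d alone gave 0.38 and -0.17, which did not pass. Psmb1 read 3971 and 3813 at 4 d against 1813 and 1796, a rise of 1.11 ± 0.17 (adjusted p = 0.0014), and 3400 and 3211 at 10 d. On the later version its brightest probe set, a different one, gave -0.49 at 4 d alone, and the probe set shared with the earlier version gave 0.41; neither passed. The log2 ratio of Psmb10 to Psmb7 on the earlier version was -2.74 in control replicate 2; in control replicate 1, both 12 h arrays and 1 d replicate 1, Psmb10 lay below the low limit, so that -3.60, -3.30, -2.01 and -2.07 are upper bounds. It was -1.36 in 1 d replicate 2, -0.70 and -0.37 at 2 d, -0.87 and -0.97 at 4 d, and -1.22 and -2.35 at 10 d.

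Of 53 other genes of ubiquitin conjugation and proteasome control listed beside the members, 34 were tested on the later version. They were counted as follows: 2 higher and 20 lower at 12 h to 2 d, 3 and 15, 1 and 14, 0 and 15, 0 and 12, and 0 and 2 in the following windows, with medians from -0.55 to -0.14. Of all probe sets, 18.5%, 18.5%, 16.1%, 13.8%, 10.2% and 2.12% were lower in these windows. The ubiquitin-conjugating enzyme Ube2b fell by 3.16 ± 0.22 at 3 to 4.5 d (adjusted p = 6.2e-13). Ube2d3, another such enzyme, fell by 2.12 ± 0.23 at 3 to 4.5 d, and Cdc34 fell by 1.82 ± 0.24 at 12 h to 2 d. The rises were those of Nfe2l2, the factor of the oxidative stress response (0.76 ± 0.18 at 12 h to 2 d and 0.54 ± 0.17 at 3 to 4.5 d), Sem1, a small lid subunit without the Psm prefix (0.44, 0.48 and 0.40 in the first 3 windows), and Ube2n (0.51 ± 0.16 at 3 to 4.5 d).

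Of 11 genes of the interferon gamma response, 9 were tested, and 6, 6, 5, 6, 5 and 3 were higher in the 6 windows with none lower, when 17.7%, 22.2%, 19.0%, 16.9%, 13.9% and 5.01% of all probe sets were higher. Irf8, a factor of myeloid cells, rose by 2.58 ± 0.17 at 3 to 4.5 d, and the peptide transporters Tap1 and Tap2 by 1.94 ± 0.23 and 1.85 ± 0.40. At 20 to 40 d, Tap1, Gbp2 and Irf8 stayed higher, by 0.93, 0.72 and 0.58, while Psmb10 did not pass.

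The cell makeup of the muscle changed over the same windows. All 10 macrophage and monocyte markers were higher in each of the first 5 windows, and their summed intensity went from 4541 and 7276 in the controls to a median of 64920 at 3 to 4.5 d and 12091 at 20 to 40 d; 1 of the 10 lay at or below the lower limit on both controls. Of 11 fast fibre markers, 7 were lower at 12 h to 2 d and 7 at 3 to 4.5 d, where their sum had a median of 107688. At 5 to 7.5 d, 8 to 10 d and 11 to 16 d, 5, 4 and 5 were lower. At 20 to 40 d none was called, though their median change was -0.65 and their sum had a median of 190613. All 7 markers of forming fibres were higher from 3 to 4.5 d to 11 to 16 d. Neutrophil markers summed to 25570 to 78675 at 12 h to 2 d, against 2382 and 2662 in the controls. Of 7 tested markers of dividing cells, 6, 6, 5, 5, 5 and 1 were higher in the 6 windows, with a median of 2.91 at 3 to 4.5 d. Of 5 fibroblast markers, 1, 4, 3, 4, 3 and 2 were higher, and 1 was lower at 12 h to 2 d. Of 4 endothelial markers, 1 was lower in each of the first 2 windows and 1 was higher at 11 to 16 d. No B cell marker of the 3 tested was called; their sum was 8222 on 12 h replicate 2, the array without which 8 members in place of 14 were lower in that window, and 625 to 1613 on the other 53. The summed T cell markers were also highest on that array (449), and of 4 T cell markers 1 was higher at 8 to 10 d and 1 at 11 to 16 d. All 4 T cell markers lay at or below the lower limit on both controls, so their sums and calls are near that limit. The part of these cells in the changes of Psmb10, Psme4 and the other members was not tested.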

How the data were processed

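The authors deposited 1 table of intensities per array version; the sources used here name no unit, software or background method. The deposited intensity values have a common trimmed mean of 800.4 to 800.5 on the later version and 598.2 to 601.1 on the earlier one, and 16% of those on the earlier version are below 0. They were not scaled again. Values were raised to 64.7 (later; median 20th percentile) or 647 (earlier; 2 times the root mean square of an array's negative values, median over arrays) and put on the log2 scale. Manufacturer's control probe sets were left out, and a probe set was tested where 2 or more arrays exceeded that limit. limma 3.58.1 in R 4.3.3 was fitted per version with 1 mean per time group over all groups; windows weight times equally, and p-values were adjusted by Benjamini-Hochberg over all probe sets, with 0.05 as threshold. The fit was checked on simulated data. Symbols came from the platform annotation and promoters from RefSeq (GRCm38.p6). Ratios were tested with exact permutation tests (scipy 1.17.1). Psme2 ratios were not run. The members, classes, lists, windows and alternatives were chosen with earlier results of these data known. The rule for named genes took Psma7, Psmb5, Psmb7, Psmb10, Psmc4, Psmd1, Psmd4, Psmd14, Psme1 and Psme3, the 3 largest rises and falls past the threshold per window, the members with the most extreme range, and the member most and the 3 least like the median of the others; of the partner list, up to 3 rises and falls per window. Other members are named where a count is broken down.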

Additional observations from a re-analysis of the deposited data

How the results depend on the processing

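Counts are of the 38 members, higher or lower against the controls unless said. On the earlier array 33 of the 38 were tested. Shares of all probe sets were computed for the main setting only. Of the counts and ratios recomputed under settings other than leaving out an array, 344 kept their direction and side of the threshold or stayed within 1.5 times, and 59 did not. One alternative, 8 to 10 d without 9 d, was chosen after seeing the data. The cause of the changes was not tested, except that leaving out arrays or time groups leaves fewer samples and a minimum fold lets fewer pass.

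With 30 and 40 d in place of the controls, members lower numbered 5, 3, 6, 4 and 3 in the first 5 windows, and members higher 10, 8, 8 and 5 from 3 to 4.5 d to 11 to 16 d. Signs reversed for Psmc2 (0.101, 0.111, 0.010 and 0.081 at 12 h to 2 d, 3 to 4.5 d, 8 to 10 d and 11 to 16 d), Psmc5 (0.109 at 5 to 7.5 d and 0.077 at 11 to 16 d), Psma7 (0.351) and Psmb4 (0.011) at 5 to 7.5 d, Psmb7 (0.012) at 8 to 10 d and Psmd6 (0.111) at 11 to 16 d. They also reversed for Psmd3 (-0.074, -0.102 and -0.143 at 3 to 4.5 d, 5 to 7.5 d and 11 to 16 d), Psme3 (-0.16 at 3 to 4.5 d) and Psmd5 (-0.10, -0.33, -0.15 and -0.21 from 3 to 4.5 d to 11 to 16 d). With the mean of its probe sets, Psmb4 was 0.04 at 5 to 7.5 d.

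Without the 8 arrays low in b-actin, 1 member was higher and 0 lower at 12 h to 2 d, 4 were lower at 20 to 40 d, 3 higher and 7 lower at 3 to 4.5 d against 12 h to 2 d, and 2 higher at 5 to 7.5 d against 3 to 4.5 d. Psmb10 was then -0.063 and Psmb1 0.227 at 12 h to 2 d, and Psme4 -0.71 at 3 to 4.5 d against 12 h to 2 d. Without the 9 arrays low in Gapdh, 1 was higher at 20 to 40 d, 3 higher at 3 to 4.5 d against 12 h to 2 d, 4 higher and 3 lower at 5 to 7.5 d against 20 to 40 d, and 12 changed over the 27 groups. Without groups whose codes share a number, 0 were higher and 0 lower at 11 to 16 d, 1 higher at 20 to 40 d and 2 higher at 3 to 4.5 d against 12 h to 2 d. Without 12 h, 3 were lower at 20 to 40 d.

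With median scaling, 2 were higher at 3 to 4.5 d, 1 higher and 2 lower at 20 to 40 d, 1 higher at 3 to 4.5 d against 12 h to 2 d, 2 higher at 5 to 7.5 d against 20 to 40 d, and 0 higher at 12 h to 2 d on the earlier array. With quantile normalization, 8 were higher at 3 to 4.5 d against 12 h to 2 d, 2 lower at 4 d on the earlier array, and the ratio of Psmb10 to Psmb7 at 12 h to 2 d, higher by 0.97, passed (exact permutation, adjusted p = 0.048). With a minimum change of 1.5-fold, 8 were lower at 12 h to 2 d, 2 lower at 11 to 16 d and 1 higher at 20 to 40 d. The counts were then 1 and 1 at 3 to 4.5 d against 12 h to 2 d, 0 and 1 at 5 to 7.5 d against 3 to 4.5 d, 2 and 3 at 5 to 7.5 d against 20 to 40 d, and 1 higher at 12 h to 2 d on the earlier array.

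At 20 to 40 d, 2 were lower with 2 times the lower limit, with no filter and with a variance trend. On the earlier array, 4 d had 5 higher and 2 lower with 0.5 times the limit, 5 and 1 with no filter, and 2 lower with the trend. There, 12 h to 2 d had 1 and 1 with no filter and 6 lower where at least 0.5 of the arrays had to exceed the limit, and 10 d had 3 and 2 with 2 times the limit. With the code number as replicate block, 2 were lower at 20 to 40 d and 8 higher at 3 to 4.5 d against 12 h to 2 d. Arrays of one number did not deviate together (correlations from -0.168 to 0.161), so the numbers are not taken as pairs, and the earlier array has no such fit.

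Leaving out each array gave 2 to 5 higher and 5 to 17 lower at 12 h to 2 d, 2 to 5 and 7 to 12 at 3 to 4.5 d, 2 to 3 and 8 to 15 at 5 to 7.5 d, 1 to 3 and 5 to 10 at 8 to 10 d, 1 to 3 and 1 to 9 at 11 to 16 d, and 0 to 2 and 0 to 3 at 20 to 40 d. It gave 2 to 10 and 2 to 5 at 3 to 4.5 d against 12 h to 2 d, 3 to 9 and 6 to 12 at 5 to 7.5 d against 20 to 40 d, and 17 to 26 changed over the 27 groups. On the earlier array it gave 0 to 6 and 0 to 11 at 12 h to 2 d, 4 to 10 and 1 to 5 at 4 d, and 1 to 5 and 1 to 2 at 10 d. The number of arrays, 2 in each group, limits the precision.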
